A study of Mus musculus with 6 samples.

Results

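The genes described here encode proteins of DNA repair and of the damage checkpoints, 52 in all, measured in red cell precursors of the mouse fetal liver. Their symbols were matched to array probe sets that carry a single gene symbol, and the brightest probe set by mean signal over all arrays stood for each gene. That gave a measurement for 51 of the 52, out of 18193 genes on the array, and Xrcc2 was not analysed here. All 51 also passed the filter on dim probe sets, which left 11959 genes for testing.

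The study compared S3 with S1, which are subsets of erythroid cells of Balb/C embryos. Livers were taken apart into single cells and sorted by flow cytometry on Ter119, an antigen that appears as red cells mature, on CD71, the receptor that takes up transferrin, and on a mix of lineage antibodies. S3 holds the more mature cells of this scheme and S1 the less mature ones, and neither subset carries a mutation or received a treatment according to the labels. Each subset had 3 arrays, from cells sorted on 3 separate days. The stage label gives embryonic day 13.5 for S3 and 12.5 for S1, whereas the source label gives day 13.5 for all 6 arrays, so that subset and embryo age cannot be told apart on these labels. The number of livers per sort is not given in the sources used here. Since the arrays read RNA of bulk sorted cells, fewer cells with a transcript and less transcript per cell cannot be told apart for any value below.

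Cells mend DNA by several routes. Base excision repair starts with glycosylases that cut out single damaged bases, nucleotide excision repair removes bulky lesions as a short stretch of strand, and mismatch repair corrects copying errors. Breaks through both strands are rejoined directly by end joining or copied from a sister strand by homologous recombination, and the Fanconi anemia pathway opens crosslinks between strands. The kinases Atm and Atr sense damage and pass the signal to Chek2 and Chek1. Erythroid progenitors of the fetal liver divide rapidly, and loss of Fanconi anemia genes is known for failure of blood formation.

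Values are signals as the authors scaled them, on a logarithm whose base is not stated. They were taken as log2, so that a difference of 1 is read as a factor of 2. The sorted cells matched their labels by the markers tested. All 3 tested progenitor markers (Kit, Myb, Gata2) were lower in S3. All 4 tested genes listed for maturing red cells were higher, namely Alas2, Slc4a1, Epb42 and the embryonic globin Hbb-bh1. The arrays fell into 2 kinds by how far their signal reached toward the start of a transcript. The log2 signal of the actin 5' probe set minus that of the 3' one was -0.56 to -0.45 in S3 replicates 1 and 3 and S1 replicate 3 (long arrays). It was -2.59 to -2.08 in S3 replicate 2 and S1 replicates 1 and 2 (short arrays). Each subset thus held both kinds, and results are given over all 6 arrays and with the kind of array (the coverage class) as a block. The scale also matters. The median log2 change of all genes, S3 minus S1, was -0.33 over the 6 arrays and -0.54 with the class block, and -0.09 and 0.23 with the class block after centring each array on the median of all probe sets or of the tested genes. Of the other cell types, summed linear signals of 5 megakaryocyte markers were 325.9 to 346 in S3 and 76.7 to 174 in S1, and 3 of these 5 were called higher with the class block. Those of 5 hepatoblast markers were 199.5 to 814 in S3 and 229.97 to 287 in S1, with 1 of the 5 called higher with the block. Of 7 macrophage markers 4 were tested and none was called, with sums of 32.9 to 86.7 in S3 and 25.8 to 114 in S1, and 2 were not above background on any array. The granulocyte and monocyte list had 5 measured markers, 1 of them lower in S3, with sums of 10.4 to 72.6 in S3 and 17.9 to 47.6 in S1. All 5 lymphoid markers were too dim to be tested. The part of these cells in the results below was not tested.

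Over the 6 arrays 6 of the 51 repair genes were called between the subsets at an adjusted p under 0.05 (limma, Benjamini-Hochberg over all 11959 genes). Neil3 was higher in S3, and Parp1, Atm, Xrcc5, Msh6 and Nthl1 were lower. The 5 lower genes compare with 12.8% of all genes called lower and the 1 higher gene with 2.53% called higher, so that the counts lie near these shares. At an unadjusted p under 0.05 (limma) 14 of the 51 passed, beside 3534 of all 11959 genes. The median log2 change of the 51 was -0.20, and 33 of them (64.7%) were below 0, against 67.9% of all genes. Leaving out any 1 array lowered the count of lower repair genes to 1 or 2. Of all 11959 genes, 541 to 1273 were then called lower and 119 to 370 higher, beside 1533 and 302 over the 6 arrays. The count of higher repair genes was 0 without S3 replicate 1, S3 replicate 3, S1 replicate 1 or S1 replicate 2. Neil3 then missed the threshold (limma adjusted p = 0.0902 to 0.110). That count was 3 without S1 replicate 3.

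**Figure D1:**
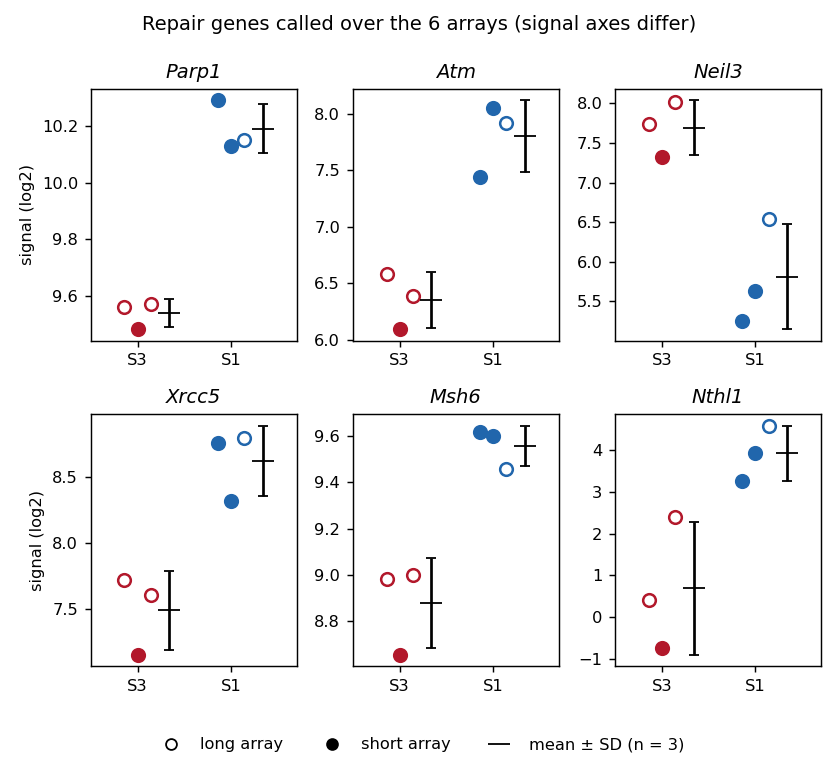
Log2 signal of the 6 called repair genes in each S3 array (red, left) and each S1 array (blue, right). Open points are long arrays, filled points short arrays, and bars give the mean ± SD of 3 arrays. In all 6 genes every S3 array lies on the same side of every S1 array, for Neil3 above and for the other 5 below.

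With the coverage class as a block 3 repair genes were higher and 26 lower, where 5.81% and 41.2% of all genes were. The number of lower genes depended on the scale. After centring on the tested genes, an alternative chosen after seeing the data, 13 were higher and 7 lower, against 23.6% and 13.8% of all genes. After centring on all probe sets 6 were higher and 10 lower, against 8.56% and 16.8%. Between the deposited scale and centring on the tested genes every change moves up by 0.77, and 9 of the 26 lower genes (Wrn, Fanca, Fancc, Parp1, Chek1, Chek2, Msh6, Ercc1 and Polb) then lay above 0. Called at all 3 scalings with the block were Neil3, Rad51c and Mpg as higher, and Nthl1, Ercc2, Xpc, Fance, Atr, Atm and Xrcc5 as lower. These are 5.88% and 13.7% of the 51, beside 5.81% and 13.8% of all genes. The 3 scalings are not separate tests, because each centring moves all changes by the same amount (0.45 on all probe sets, 0.77 on the tested genes). The 3 higher genes are those called higher on the deposited scale. The 7 lower ones are those called lower after centring on the tested genes. Members described below besides the 6 above and Rad51c, Rad52, Fancc, Fance, Ercc4 and Xpc were picked for description after their values were seen.

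**Figure D2:**
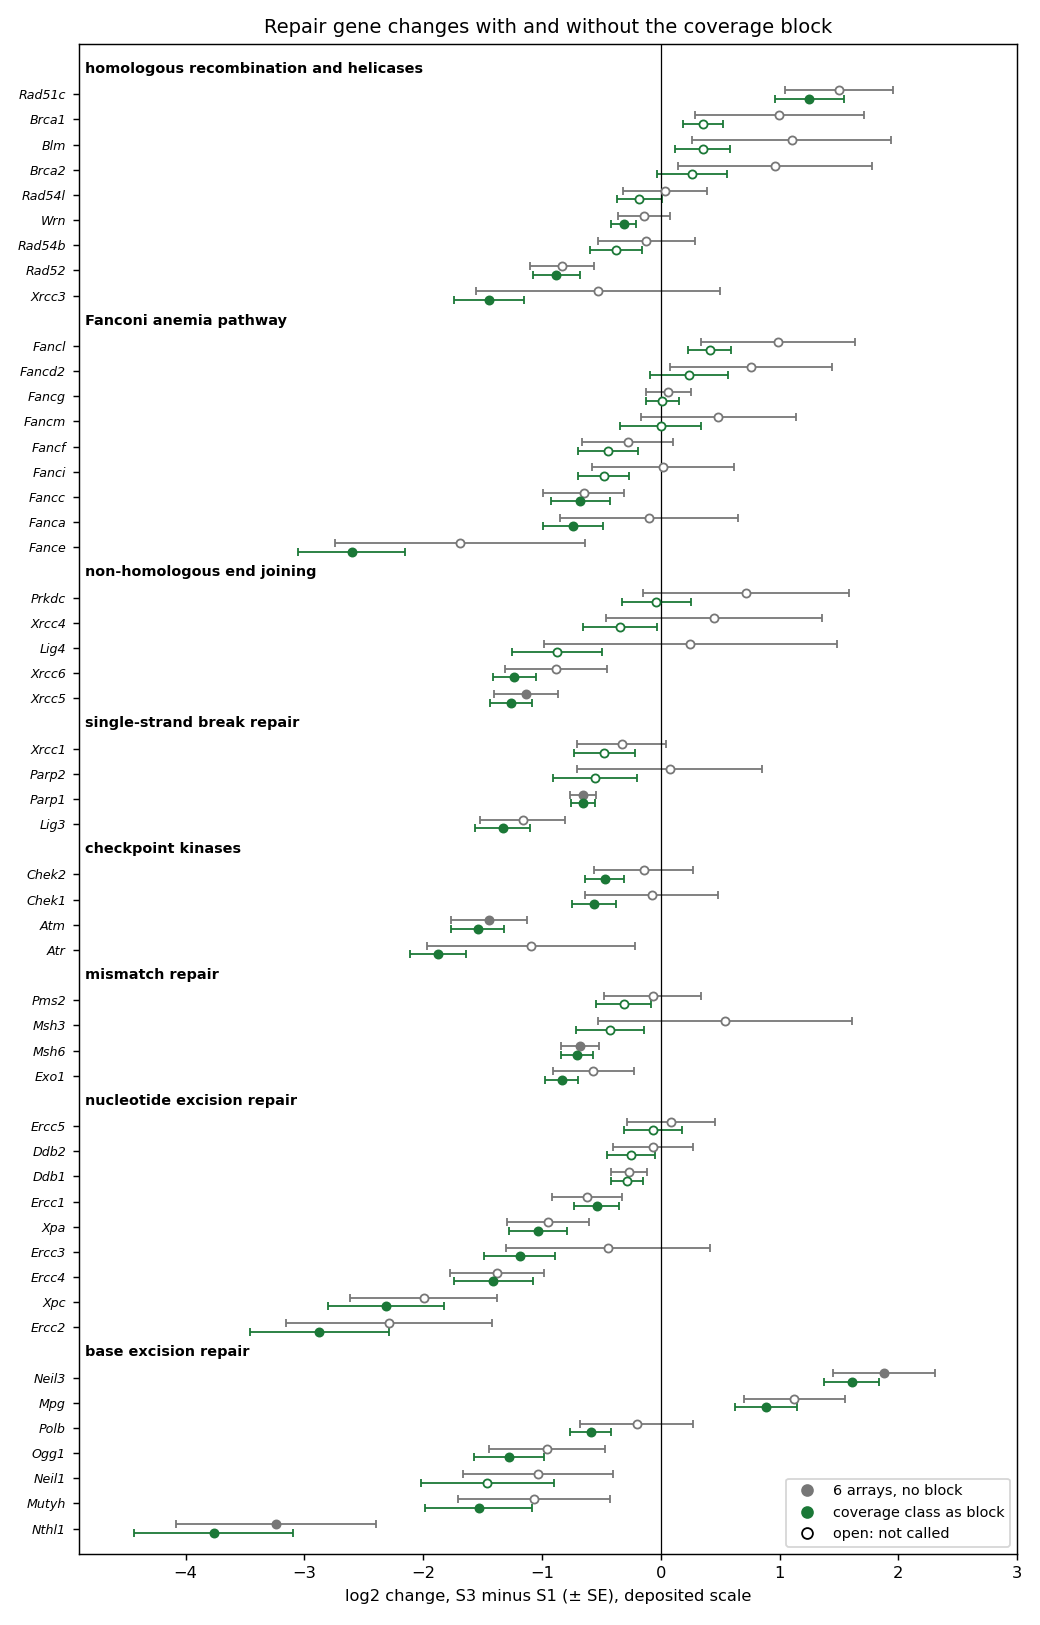
Log2 change (S3 minus S1, ± SE, deposited scale) of the 51 repair genes by role, over the 6 arrays (grey) and with the coverage class as a block (green). Filled points are called at an adjusted p under 0.05. Neil3, Rad51c and Mpg stand farthest to the right of 0 and Nthl1, Ercc2, Xpc and Fance farthest to its left.

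Upstream sequence is shown for the called genes whose 250 bases before a RefSeq transcript start (build GRCm38.p6) hold one of 4 short motifs known from promoters of cell cycle genes. The motifs were TTTCGCGC and TTTGGCGC (E2F), TTTGAA (cell cycle homology region) and CCAAT (NF-Y), searched on both strands, with no motif contained in another. CCAAT was present in 33.8% of 32851 such windows of all genes and in 54.3% of 46 windows of 42 repair genes that matched. E2F letters were present in 0.654% and 4.35% (2 of the 46 windows), and TTTGAA in 16.0% and 2.17% (1 of the 46). Windows of the other 9 measured repair genes were not analysed here. Atm (chr9:53536672-53536921, minus strand), Xrcc5 (chr1:72307171-72307420, plus strand), Msh6 (chr17:87974800-87975049, plus strand) and Nthl1 (chr17:24632432-24632681, plus strand) held a match, which is a description of letters and not of bound sites. The windows of Parp1 and Neil3 held none of these letters. Sequences run 5' to 3' along the gene strand and end at the base before the start, with the matches in capitals.
Atm: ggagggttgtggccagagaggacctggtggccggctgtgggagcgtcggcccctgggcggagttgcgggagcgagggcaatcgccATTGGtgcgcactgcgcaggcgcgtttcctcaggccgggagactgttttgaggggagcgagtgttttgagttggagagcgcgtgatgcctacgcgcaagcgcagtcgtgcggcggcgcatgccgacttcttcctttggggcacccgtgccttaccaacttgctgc
Xrcc5: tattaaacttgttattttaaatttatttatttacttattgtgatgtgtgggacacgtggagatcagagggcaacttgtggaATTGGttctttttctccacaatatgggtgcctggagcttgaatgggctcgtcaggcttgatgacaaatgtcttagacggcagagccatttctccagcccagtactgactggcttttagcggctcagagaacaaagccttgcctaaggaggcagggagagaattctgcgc
Msh6: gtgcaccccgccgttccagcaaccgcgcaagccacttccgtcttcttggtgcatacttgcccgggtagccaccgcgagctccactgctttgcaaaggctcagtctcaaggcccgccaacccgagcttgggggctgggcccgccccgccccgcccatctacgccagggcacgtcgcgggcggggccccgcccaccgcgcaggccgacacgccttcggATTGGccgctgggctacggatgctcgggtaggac
Nthl1: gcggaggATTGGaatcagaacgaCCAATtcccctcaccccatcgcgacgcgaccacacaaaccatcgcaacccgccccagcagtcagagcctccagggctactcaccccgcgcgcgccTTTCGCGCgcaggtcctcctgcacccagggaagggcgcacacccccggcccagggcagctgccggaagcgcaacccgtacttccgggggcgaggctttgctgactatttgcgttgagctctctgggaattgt

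Base excision repair held the largest rise and the largest fall among the 51. Neil3, a glycosylase of the Nei family that acts on oxidised bases, read 7.73, 7.32 and 8.02 in S3 replicates 1 to 3, against 5.26, 5.63 and 6.54 in S1 replicates 1 to 3. Every S3 array was above every S1 array, and the same held within the short and within the long arrays. The means were 7.69 ± 0.35 in S3 and 5.81 ± 0.66 in S1 (SD, n = 3 each), a log2 change of 1.88 ± 0.43 (SE, limma adjusted p = 0.0266), or 3.68-fold. With the class block the change was 1.61 ± 0.23 (adjusted p = 3.08e-04). A dimmer probe set of Neil3 changed by 1.79 ± 0.62 over the 6 arrays and by 2.02 ± 0.52 with the block (limma adjusted p = 0.121 and 0.0138 over probe sets).

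Nthl1, the endonuclease III homolog that removes oxidised pyrimidines, was at the opposite end. It read 0.40, -0.74 and 2.40 in S3, against 3.26, 3.93 and 4.59 in S1. All S1 arrays were above background, whereas in S3 replicate 3 alone of its subset was. The log2 change was -3.24 ± 0.84 (SE, limma adjusted p = 0.0411), and -2.39 with values raised to background. With the class block it was -3.76 ± 0.67 (adjusted p = 0.00108). Without the filter on dim probe sets the adjusted p was 0.0571, and without the intensity trend 0.0595.

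The other 5 glycosylases and gap fillers of this route differed among themselves. Mpg, which removes alkylated purines, read 7.58, 7.35 and 7.63 in S3, against 5.70, 6.31 and 7.17 in S1. The subsets did not overlap, and S1 replicate 3 was the S1 array nearest to the S3 arrays. The change was not called over the 6 arrays (1.12 ± 0.42, adjusted p = 0.124) and was called with the class block (0.89 ± 0.26, limma adjusted p = 0.0174). Its 2 dimmer probe sets changed by 1.16 ± 0.28 and 1.39 ± 0.46 with the block, both called. Ogg1, the glycosylase for oxidised guanine, read 4.79, 3.74 and 4.84 in S3, against 5.34, 4.93 and 5.98 in S1. Its subsets did not overlap, and it was lower with the block (-1.28 ± 0.29, adjusted p = 0.00473). Another probe set of Ogg1, nearly as bright (mean 4.93 beside 4.94), did not repeat this. It read 5.08, 3.72 and 5.42 in S3, against 4.40, 5.01 and 5.97 in S1, and overlapped. It was not called over the 6 arrays (-0.39 ± 0.63) or with the block (-0.86 ± 0.31, limma adjusted p = 0.0579 over probe sets). Mutyh, which removes adenine set opposite oxidised guanine, read 2.94, 1.72 and 2.67 in S3, against 2.71, 3.18 and 4.64 in S1, and overlapped (block -1.53 ± 0.45, adjusted p = 0.0173). Polb, the polymerase that fills the gap, had a block change of -0.59 ± 0.17 (adjusted p = 0.0178). Neil1, a relative of Neil3, was dim, with 1.71, 0.41 and 2.21 in S3, against 2.09, 2.20 and 3.15 in S1, and was not called (block -1.46 ± 0.56, adjusted p = 0.0539). After centring on the tested genes, Ogg1 (adjusted p = 0.208) and Mutyh (adjusted p = 0.218) were no longer called and Polb lay above 0.

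Among the genes that handle breaks in a single strand, Parp1 had the smallest spread between arrays. Parp1, which senses breaks and adds ADP-ribose chains, read 9.56, 9.48 and 9.57 in S3, against 10.29, 10.13 and 10.15 in S1. The subsets were apart by more than the range within either. The log2 change was -0.65 ± 0.11 (SE, limma adjusted p = 0.00933), and -0.66 ± 0.10 with the class block. Relative to the median of all genes this is small. The change was -0.42 after centring on all probe sets (adjusted p = 0.506), and 0.11 ± 0.11 with the block and centring on the tested genes (adjusted p = 0.461). Its 3 dimmer probe sets had values below 0 over the 6 arrays (-0.60, -0.76 and -1.44) with none called, and 2 of them were called with the block (-1.16 ± 0.19 and -1.32 ± 0.22). Parp1 kept its call whichever array was left out.

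Lig3, the ligase that seals such breaks, read 7.16, 6.40 and 6.39 in S3, against 7.61, 7.59 and 8.24 in S1. Its subsets did not overlap, the change missed the threshold over the 6 arrays (-1.16 ± 0.36, adjusted p = 0.0702), and it was called with the class block (-1.33 ± 0.23, limma adjusted p = 9.95e-04). Both dimmer tested probe sets of Lig3 were also called with the block (-2.48 ± 0.32 and -1.75 ± 0.29). Centred on the tested genes the call was lost (adjusted p = 0.0745). Xrcc1, the scaffold that binds Lig3, and Parp2, a second ADP-ribose polymerase, were not called (block changes -0.48 ± 0.25 and -0.55 ± 0.35).

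Of the 4 checkpoint kinases Atm was called lower in S3 over the 6 arrays, and Atm and Atr at all 3 scalings with the block. Atm read 6.58, 6.09 and 6.38 in S3, against 7.44, 8.05 and 7.91 in S1, with no overlap. The log2 change was -1.45 ± 0.32 (SE, limma adjusted p = 0.0239), a 2.73-fold lower signal in S3, and -1.54 ± 0.22 with the class block (adjusted p = 3.08e-04). It was not called with the mean of its 2 probe sets (-0.98, adjusted p = 0.369), since the dimmer one changed by -0.52 ± 0.95 over the 6 arrays. With the block that dimmer probe set was lower too (-1.33 ± 0.42, adjusted p = 0.0341 over probe sets). Leaving out any array except S3 replicate 2 raised the adjusted p of Atm to between 0.0582 and 0.100.

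Atr read 6.15, 3.85 and 6.12 in S3, against 5.60, 5.73 and 8.08 in S1. The subsets overlapped, because the short S1 arrays read close to the long S3 arrays. Within the long arrays S3 minus S1 was -1.94, and within the short arrays -1.81. Over the 6 arrays Atr was not called (-1.09 ± 0.88, adjusted p = 0.490), and with the class block it was (-1.87 ± 0.23, limma adjusted p = 1.30e-04). Of its 2 dimmer probe sets, 1 was also called with the block (-1.36 ± 0.39).

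Chek1, the kinase that Atr activates, read 8.64, 7.07 and 8.62 in S3, against 7.43, 8.04 and 9.09 in S1. Chek2, the target of Atm, read 7.90, 7.09 and 8.16 in S3, against 7.59, 7.44 and 8.55 in S1. Both overlapped between subsets and neither was called over the 6 arrays (adjusted p = 0.952 and 0.870). The class block gave -0.56 ± 0.19 for Chek1 and -0.47 ± 0.17 for Chek2 (limma adjusted p = 0.0298 and 0.0375). These 2 changes lie close to the median of all genes under the same block, -0.54, and both turned positive and uncalled after centring on the tested genes (adjusted p = 0.443 and 0.206). All 4 dimmer probe sets of Chek1 had block changes between -0.96 and -0.61.

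End joining and mismatch repair had a called gene each over the 6 arrays. Xrcc5, the larger subunit of the Ku ring that binds broken ends, read 7.72, 7.15 and 7.60 in S3, against 8.76, 8.31 and 8.79 in S1, with no overlap. Its log2 change was -1.13 ± 0.27 (SE, limma adjusted p = 0.0303), and -1.26 ± 0.17 with the class block (adjusted p = 2.51e-04). Leaving out any 1 array raised its adjusted p to between 0.0574 and 0.117. Its partner Xrcc6 read 8.47, 6.94 and 8.15 in S3, against 8.51, 8.48 and 9.23 in S1. S3 replicate 1 nearly met S1 replicates 1 and 2. Xrcc6 was called with the block (-1.23 ± 0.18, limma adjusted p = 3.46e-04) and not over the 6 arrays (-0.88 ± 0.43, adjusted p = 0.228). Both Ku genes thus had block changes of similar size, and after centring on the tested genes Xrcc5 stayed just under the threshold (adjusted p = 0.0497) and Xrcc6 missed it (adjusted p = 0.0729).

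The remaining end-joining genes were not called by either fit. They were Prkdc, the large kinase that Ku recruits (block change -0.04 ± 0.29), Xrcc4, a scaffold (-0.35 ± 0.31), and its ligase Lig4 (-0.87 ± 0.38, adjusted p = 0.0829). These 3 differed between long and short arrays of the same subset by 1.94 to 3.37 in S3 and by 2.57 to 3.37 in S1, more than between the subsets.

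In mismatch repair, Msh6, a subunit of the dimer that finds mispairs, read 8.98, 8.66 and 9.0 in S3, against 9.61, 9.60 and 9.46 in S1. The subsets were apart, and the log2 change was -0.68 ± 0.16 (SE, limma adjusted p = 0.0304), or -0.71 ± 0.13 with the class block (adjusted p = 0.00155). Like Parp1 it depended on the scale, with -0.45 after centring on all probe sets (adjusted p = 0.477) and 0.06 ± 0.14 with the block and centring on the tested genes (adjusted p = 0.778). Exo1, the exonuclease that removes the faulty stretch, read 8.27, 7.47 and 8.31 in S3, against 8.33, 8.31 and 9.11 in S1. It was called with the block (-0.84 ± 0.14, adjusted p = 7.10e-04) but not after centring on the tested genes (adjusted p = 0.753). Msh3 and Pms2 were not called (block changes -0.43 ± 0.29 and -0.31 ± 0.23).

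No gene of nucleotide excision repair was called over the 6 arrays. At an unadjusted p under 0.05 (limma) 3534 of all 11959 genes passed, and 4 of these 9 did. Over the 6 arrays their changes ran from -2.29 for Ercc2 to 0.09 for Ercc5. With the class block 6 of the 9 were lower, where 41.2% of all genes were. The list's median change was -0.62 over the 6 arrays and -1.03 with the block. Xpc, which recognises distorted helices, read 3.50, 2.00 and 2.91 in S3, against 5.35, 3.78 and 5.27 in S1. All S3 arrays were below all S1 arrays (-2.0 ± 0.62, adjusted p = 0.0710; block -2.31 ± 0.49, limma adjusted p = 0.00290). Ercc2, a helicase of the repair and transcription factor TFIIH, read 3.82, 0.32 and 2.61 in S3, against 4.60, 4.08 and 4.95 in S1. S3 replicate 2 was not above background there, and the block change was -2.87 ± 0.58 (limma adjusted p = 0.00241), while the 6 arrays gave -2.29 ± 0.87 (adjusted p = 0.125).

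Ercc4, the nuclease that cuts on one side of the lesion, read 4.46, 4.23 and 3.72 in S3, against 5.52, 5.28 and 5.74 in S1, again without overlap (-1.38 ± 0.40, adjusted p = 0.0571; block -1.41 ± 0.33, limma adjusted p = 0.00550). Its 3 dimmer probe sets did not repeat this, with values of 0.12, -0.58 and -0.30 over the 6 arrays and none called with the block. The block also called Xpa, which checks the lesion (-1.03 ± 0.24), the TFIIH helicase Ercc3 (-1.19 ± 0.30) and Ercc1, the partner of Ercc4 (-0.54 ± 0.19). The change of Ercc1 lies close to the median of all genes under the block, -0.54. Its dimmer tested probe set was not called (0.14 ± 0.57 over the 6 arrays, -0.17 ± 0.40 with the block). Both dimmer tested probe sets of Xpa were also not called with the block (-0.52 ± 0.67 and -0.77 ± 0.68). The damage sensors Ddb1 (-0.28 ± 0.13) and Ddb2 (-0.25 ± 0.20) and the nuclease Ercc5 (-0.07 ± 0.25) were not called with the block. After centring on the tested genes, Ercc2 and Xpc were the 2 genes of this route that stayed lower (adjusted p = 0.0148 and 0.0263), while Ddb1 and Ercc5 were called higher (0.49 and 0.70).

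**Figure D3:**
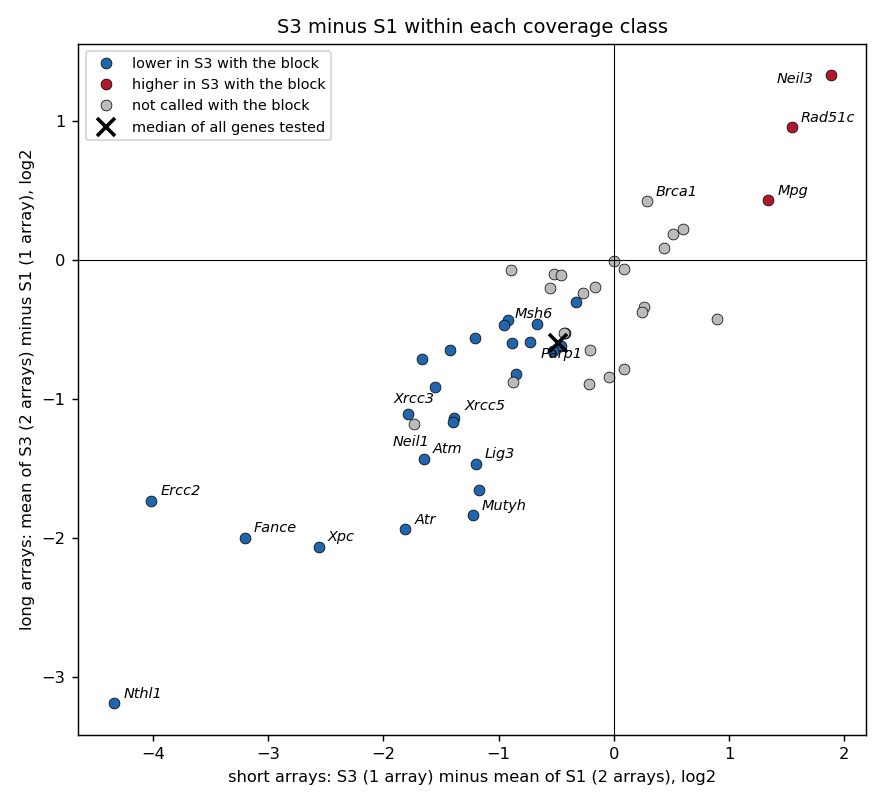
Log2 difference S3 minus S1 of the 51 repair genes within the short arrays (x axis) and within the long arrays (y axis), coloured by their call with the class block, with a cross at the median of all 11959 genes. Nthl1, Ercc2, Fance and Xpc lie low on both axes, Neil3, Rad51c and Mpg high on both, and Parp1 and Msh6 near the cross.

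Of the 9 recombination genes and helicases none was called over the 6 arrays. At an unadjusted p under 0.05 (limma) 3534 of all 11959 genes passed, and 2 of these 9 did. With the class block 1 was higher and 3 were lower, where 5.81% and 41.2% of all genes were. Rad51c, a protein of homologous recombination, read 6.62, 6.32 and 6.94 in S3, against 5.14, 4.42 and 5.82 in S1. The subsets did not overlap. The change missed the threshold over the 6 arrays (1.50 ± 0.46, adjusted p = 0.0679) and passed with the class block (1.25 ± 0.29, limma adjusted p = 0.00520) and in 10 of 20 other fits in all. Rad52, an annealing protein, lay the other way, with 7.50, 6.90 and 7.24 in S3, against 8.05, 8.16 and 7.93 in S1. It was called with the block (-0.88 ± 0.20, adjusted p = 0.00416) and not over the 6 arrays (-0.83 ± 0.27, adjusted p = 0.0838), and after centring on the tested genes it was not called (adjusted p = 0.703). Xrcc3, the partner of Rad51c in 1 of its complexes, read 6.32, 3.22 and 6.32 in S3, against 5.34, 4.69 and 7.43 in S1, and overlapped. Its block change was -1.45 ± 0.30 (limma adjusted p = 0.00253), opposite in sign to that of Rad51c, and was not called after centring on the tested genes (adjusted p = 0.101).

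Brca1, Brca2 and Blm differed more between long and short arrays than between the subsets. Brca1, a ubiquitin ligase that prepares broken ends, read 8.67, 6.79 and 8.89 in S3, against 6.53, 6.48 and 8.36 in S1. The long arrays stood above the short ones by 1.99 within S3 and by 1.85 within S1, while S3 minus S1 was 0.43 within the long arrays and 0.29 within the short ones. Brca2, a tumour suppressor of the same route, read 8.04, 6.31 and 8.42 in S3, against 5.32, 6.43 and 8.14 in S1. Blm, a helicase that takes apart recombination intermediates, read 8.53, 6.60 and 8.83 in S3, against 5.71, 6.45 and 8.49 in S1. The class block called none of these 3 (0.36 ± 0.17, 0.26 ± 0.29 and 0.35 ± 0.23 in that order, limma adjusted p = 0.108, 0.505 and 0.245). Centred on the tested genes, 6 of the 9 recombination genes were called higher (Brca1, Brca2, Rad51c, Rad54l, Blm and Wrn) and none lower, where 23.6% of all genes were called higher. Wrn, another helicase of the same family as Blm, turned its call with the scale, at -0.31 ± 0.11 on the deposited scale (adjusted p = 0.0320) and 0.46 when centred on the tested genes (adjusted p = 0.00907). The translocases Rad54l and Rad54b had block changes of -0.18 ± 0.19 and -0.38 ± 0.22, with neither called on the deposited scale.

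**Figure D4:**
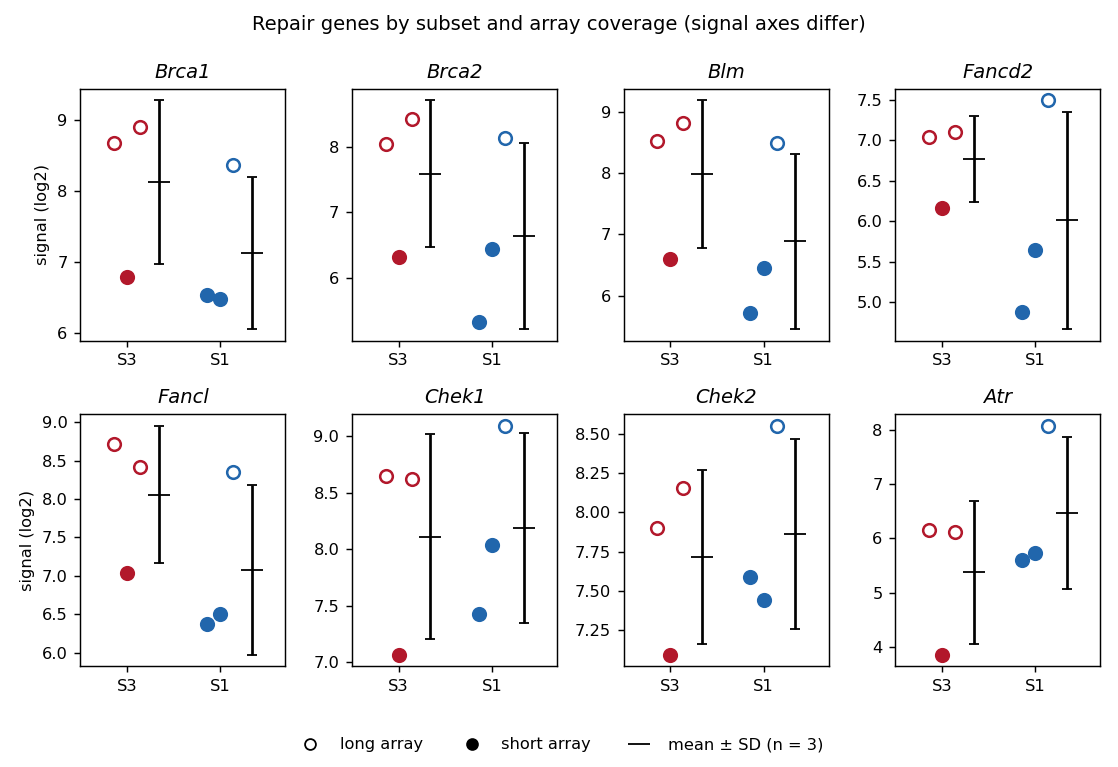
Log2 signal of 8 recombination, crosslink repair and checkpoint genes in S3 arrays (red, left) and S1 arrays (blue, right), with long arrays open, short arrays filled and bars for the mean ± SD of 3 arrays. In each gene the long arrays of a subset read above its short arrays, and the subsets overlap.

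Of the 9 Fanconi anemia genes none was called over the 6 arrays. At an unadjusted p under 0.05 (limma) 3534 of all 11959 genes passed, and 0 of these 9 did. With the class block 3 of the 9 were lower, where 41.2% of all genes were. The median change of the list was 0.02 over the 6 arrays and -0.44 with the block, beside -0.33 and -0.54 for all genes. Fancc and Fance, subunits of the core complex, had the smallest p. Fancc read 5.85, 5.71 and 6.22 in S3, against 6.43, 6.83 and 6.46 in S1, without overlap (-0.65 ± 0.34, adjusted p = 0.263; block -0.68 ± 0.25, limma adjusted p = 0.0471), and lay at 0.09 when centred on the tested genes. Fance read 3.87, 0.30 and 3.43 in S3, against 3.29, 3.72 and 5.65 in S1, and S3 replicate 2 was not above background. It was not called over the 6 arrays (-1.69 ± 1.05, adjusted p = 0.352). With the class block its change was -2.60 ± 0.45 (adjusted p = 9.34e-04), and a dimmer probe set was also called with the block (-1.85 ± 0.44).

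The core subunit Fanca was also lower with the block (-0.74 ± 0.25, limma adjusted p = 0.0337), and lay at 0.03 when centred on the tested genes (adjusted p = 0.947). Fancd2 and Fanci form the pair that the core complex tags with ubiquitin. Fancd2 read 7.04, 6.16 and 7.11 in S3, against 4.88, 5.65 and 7.50 in S1, and S3 minus S1 was -0.42 within the long arrays and 0.90 within the short ones. Fanci had a block change of -0.48 ± 0.22 (adjusted p = 0.0919). Fancl, the ubiquitin ligase of the complex, read 8.72, 7.04 and 8.42 in S3, against 6.38, 6.50 and 8.35 in S1 (block 0.41 ± 0.18, limma adjusted p = 0.0916). Its dimmer probe set differed from this one. It read 6.56, 6.50 and 6.98 in S3, against 4.41, 4.89 and 5.20 in S1, without overlap, and was called higher over the 6 arrays (1.85 ± 0.40, limma adjusted p = 0.0311) and with the block (1.71 ± 0.27, adjusted p = 0.00135). The core subunits Fancg (0.01 ± 0.14) and Fancf (-0.44 ± 0.25) were not called with the block, nor was the translocase Fancm, whose change was close to 0 (SE 0.34). Centred on the tested genes, Fancl, Fancd2 and Fancg were called higher (1.18, 1.01 and 0.78) and Fance lower (-1.83).

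Most of the 51 genes read higher on long arrays, in both subsets. Long arrays read above short ones in 49 of the 51 genes within S3 and in 44 within S1, beside 8961 and 9878 of all 11959 genes tested. The median log2 differences were 0.95 and 1.00, beside 0.52 and 0.61 over all genes tested. The differences reached 3.37 within both subsets, in Lig4. Parp1, Msh6, Fancc, Ercc1, Ddb1 and Fancg differed between long and short arrays by at most 0.34 in size within either subset. Every S3 array lay below every S1 array in 16 of the 51 genes and above in 3, where 29.5% and 5.81% of all genes did. Compared within the long and within the short arrays alone, every S3 array was below every S1 array in both kinds for 32 genes and above in both for 6 (Brca1, Rad51c, Blm, Fancl, Neil3 and Mpg), where 56.4% and 10.2% of all genes were.

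Other genes of these pathways, outside the 51, were counted by list, beside 2.53% of all genes called higher and 12.8% lower over the 6 arrays, 5.81% and 41.2% with the class block, and 23.6% and 13.8% with the block after centring on the tested genes. Of 26 tested partners in recombination, crosslink repair and end joining, 0 were higher and 2 lower over the 6 arrays, 1 and 8 with the block, and 6 and 1 after centring. The smallest p belonged to Rad51d, also of homologous recombination (4.64 ± 0.49 in S3 and 6.30 ± 0.20 in S1, SD, n = 3 each; -1.66 ± 0.40, limma adjusted p = 0.0329), and to the helicase Recql (-1.13 ± 0.31, adjusted p = 0.0471). None of 16 damage signalling genes was called over the 6 arrays. At an unadjusted p under 0.05 (limma) 3534 of all 11959 genes passed, and 2 of these 16 did. With the block 0 were higher and 7 lower, and after centring 8 and 1. The smallest p was that of Rad1, a clamp subunit (-1.22 ± 0.35, adjusted p = 0.0566; block -1.48), followed by Rpa2, which coats single strands (-0.36 ± 0.14, adjusted p = 0.133). Of 14 partners in excision and mismatch repair 0 were higher and 2 lower over the 6 arrays, 1 and 10 with the block, and 2 and 5 after centring. The 2 were Rad23b, which binds Xpc (7.85 ± 0.34 in S3 and 9.12 ± 0.25 in S1, SD, n = 3 each; -1.26 ± 0.25, limma adjusted p = 0.0177), and the TFIIH subunit Gtf2h3 (-1.58 ± 0.33, adjusted p = 0.0197). Of 9 genes of translesion synthesis and direct reversal, 0 were higher and 1 lower over the 6 arrays, 0 and 4 with the block, and 4 and 1 after centring. Mgmt, which removes alkyl groups from guanine, was lower over the 6 arrays (3.77 ± 0.72 in S3 and 5.70 ± 0.23 in S1, SD, n = 3 each; -1.93 ± 0.48, limma adjusted p = 0.0347), and Alkbh3, an alkyl remover for single strands, was not called (-0.62 ± 0.20, adjusted p = 0.0766). Of 19 cell cycle genes 0 were called over the 6 arrays (limma, 2 at an unadjusted p under 0.05), with a median change of 0.33. With the block 3 were higher and 0 lower (median 0.08), and after centring on the tested genes 18 were higher and 0 lower (median 0.84). Their part in the results on repair genes was not tested.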

How the data were processed

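RNA of sorted S3 and S1 cells was amplified and hybridised to Affymetrix mouse arrays, 1 per sample, per the labels. The authors took MAS5 signals and divided out the average of 3 probe sets, for 18S RNA, Gapdh and beta-actin, per the series' design text. The deposited values were taken as log2 signals and used unchanged, since they run below 0 and the base is not stated. Of 45101 probe sets 64 were controls, and only those with 1 symbol in the platform annotation were named. Genes were tested when their mean exceeded the 40th percentile of non-control probe sets.

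S3 minus S1 was fitted over all tested genes in limma 3.58.1 under R 4.3.3 (lmFit, then eBayes with trend, p two-sided and Benjamini-Hochberg adjusted, threshold 0.05). The background of an array was the 95th percentile of 27 bacterial control probe sets. Coverage classes split arrays at an actin 5' minus 3' difference of -1.5. Dimmer probe sets were fitted and adjusted over all probe sets. The number of arrays limits the precision. Fits were tested on simulated arrays with independent noise per gene. These held no difference between long and short arrays and no shift of scale, so they cannot speak to either. Alternatives were other scalings, filters, an added constant, no trend, probe set means, the replicate or class block and fewer arrays. The members, lists and alternatives were chosen with earlier results of these data known. Values in every array are given for called genes and, in routes without one, for the 2 genes with the smallest p. They are also given for further members that were picked after their values were seen. Of other lists at most 2 genes with the smallest p are named. Genes without a matching probe set are not analysed here.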

Additional observations from a re-analysis of the deposited data

How the results depend on the processing

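The 5 lower and 1 higher repair genes over the 6 arrays moved with the scale and the coverage class. The count of lower genes was 2 after median centring, 3 after quantile normalization, 1 after centring on tested genes, 2 without the intensity trend, 2 with the mean of probe sets, 26 with the class block, 10 with the class block and median centring, 19 on the long arrays alone and 15 on the short arrays alone. The count of higher genes was 3 after median centring, 3 after quantile normalization, 5 after centring on tested genes, 3 with the class block, 6 with the class block and median centring, 13 with the class block and centring on tested genes, 2 on the long arrays alone and 3 on the short arrays alone. Leaving out 1 array gave 1 to 2 lower and 0 to 3 higher repair genes, beside 541 to 1273 and 119 to 370 of all genes. Both centrings on tested genes were added after seeing the data. The other filters and the added constant left both counts within 1.5 times. The cause of these moves was not tested.

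With the class block and centring on tested genes the sign turned for Parp1 (0.11), Msh6 (0.0602) and Fancc (0.0927). The 51 genes had a median log2 change between -0.59 and 0.26 over all alternatives. Of all genes tested, 302 were higher and 1533 lower over the 6 arrays, 478 and 972 after median centring, 698 and 1127 after quantile normalization, 709 and 693 after centring on tested genes, 695 and 4922 with the class block, and 2818 and 1647 with the class block and centring on tested genes. The share called higher among calls was 16.5%, 33.0%, 38.2%, 50.6%, 12.4% and 63.1% in the same order. It was 33.7% (1024 higher and 2013 lower) with the class block and median centring. On the long arrays alone 617 genes were higher and 4151 lower, on the short arrays alone 337 and 2601, and with probe set means 208 and 796.

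With the replicate number as a block 2 repair genes were higher and 6 lower, and 412 and 1897 of all genes. Same-numbered arrays had correlations of their deviations of -0.19, 0.36 and 0.43, and not every array correlated best with its own number. Over all pairs of an S3 and an S1 array the correlation was above 0 where both were long or both short and below 0 otherwise, so that a shared sort day cannot be told from these values, and no pairing was used. Signals near background limit what can be read for Nthl1, Fance, Ercc2 and Neil1. The arrays of S3 that were not above background numbered 2 for Nthl1 and 1 for each of the other 3.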

Other observations

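Dimmer probe sets of the same genes give another reading of the 51. The genes called over the 6 arrays included 3 with 5 further probe sets that passed the filter. All 5 matched the brightest one in sign, and 0 of them passed the threshold over the 6 arrays. Among the genes called with the class block, 21 had 37 further probe sets. In sign 35 of the 37 matched the brightest one, 14 passed the threshold too, and 0 passed it in the opposite direction. Most of these genes were lower. Of all genes, by their brightest probe set, 77.4% were below 0 with the block and 41.2% were called lower. Over all members with more than 1 tested probe set, called or not, 43 of 57 further probe sets matched in sign over the 6 arrays. Of the 57, 1 was called over the 6 arrays, that of Fancl. For Rad51c the dimmer probe set changed by 0.97 ± 0.47 over the 6 arrays and by 0.73 ± 0.30 with the block, and neither change was called (limma adjusted p = 0.262 and 0.0829).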
